A study of Homo sapiens with 12 samples.

Results

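Expression of 10 enzymes of serine and proline synthesis and of folate metabolism was examined in SK-N-DZ, a MYCN amplified human neuroblastoma (NB) cell line. The enzymes were PHGDH, PSAT1, PSPH, SHMT1, SHMT2, MTHFD2, MTHFD1L, ALDH1L2, ALDH18A1 and PYCR1, which are 10 of the 43769 genes in the count table, and they were found by gene symbol. The group was chosen by a known result of these data, because ALDH1L2 had been higher with doxycycline in both comparisons that carry it. The values of ALDH1L2 with doxycycline are therefore a description without a test, and nothing was read from the number of members that moved with doxycycline.

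The cells were a clone of SK-N-DZ with an inducible hairpin against ARID1A, a subunit of the SWI/SNF chromatin remodeling complex. Each of the 4 groups had 3 replicates. Untreated cells are called C, cells with doxycycline D, cells with IFNγ I, and cells with both agents DI. Per the labels, doxycycline was given for 4 days and IFNγ for 24 h, and the genotype was WT in C and I and shARID1A in D and DI. Doxycycline, an antibiotic that also acts on mitochondrial ribosomes, switches on the hairpin. The study sequenced only hairpin cells, so doxycycline itself, the hairpin and loss of ARID1A cannot be told apart. The labels do not say whether replicates were separate cultures, so p-values measure only the spread between these libraries, which may be technical.

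Serine is made from the glycolytic intermediate 3-phosphoglycerate in 3 steps, by PHGDH, PSAT1 and PSPH in that order. Serine hydroxymethyltransferases (SHMT1 in the cytosol, SHMT2 in mitochondria) then turn serine into glycine and load a one-carbon unit on folate, and MTHFD2, MTHFD1L and ALDH1L2 oxidize or release that unit inside mitochondria. ALDH18A1 and PYCR1 begin and end proline synthesis from glutamate in mitochondria. Many of these genes are known targets of the transcription factor ATF4, which is induced by amino acid shortage and by mitochondrial stress, and MYCN is known to drive the serine and folate genes in NB.

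Library totals ranged from 16469832 to 21790869 counts, and 15828 genes passed the filter on low counts. All 10 members passed it, with 119 to 11520 counts per library. Levels are given as CPM, the counts scaled to a common library size, and a fold change is called when its Benjamini-Hochberg (BH) adjusted p over all 15828 genes is under 0.05. The 10 adrenergic NB markers together made up 4550 to 5920 CPM per library, the 7 fibroblast markers 33.3 to 121 CPM, and the 5 immune markers and 3 endothelial markers at most 1.49 and 2.94 CPM, with CD3E and PECAM1 at 0. ARID1A, the targeted gene, was at 197, 186 and 165 CPM in C and at 197, 159 and 158 CPM in D, a log2 fold change of −0.09 (SE 0.11, adjusted p = 0.788 by edgeR's quasi-likelihood test). It was at 192, 202 and 193 CPM in I and at 151, 133 and 148 CPM in DI, a log2 fold change of −0.44 (SE 0.11, adjusted p = 0.115 by edgeR). The ARID1A mRNA in these libraries thus gives no call of knockdown in D or in DI. Its groups do not overlap for DI vs I, in the lower direction, as for 8.41% of all genes. The study reported lower ARID1A in SK-N-DZ hairpin clones by qPCR and Western blot, which these counts do not measure. The 13 mitochondrially encoded mRNAs took 3.35 to 4.99% of all counts in the C libraries, 0.856 to 1.3% in D, and 2.9 to 4.42% in I against 0.768 to 2.58% in DI. They were lower in every doxycycline library, and their part in the differences below was not tested. ATF4 was at 338, 351 and 252 CPM in C and 391, 434 and 515 CPM in D. It was at 258, 320 and 205 CPM in I and 365, 403 and 408 CPM in DI. Its log2 fold change was 0.51 (SE 0.18, adjusted p = 0.215 by edgeR) in D vs C and 0.59 (SE 0.18, adjusted p = 0.196) for DI vs I. ATF4 was not called, but its groups did not overlap in either comparison. They were higher with doxycycline, as for 10.1% of all genes in D vs C and 8.17% for DI vs I.

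**Figure D1:**
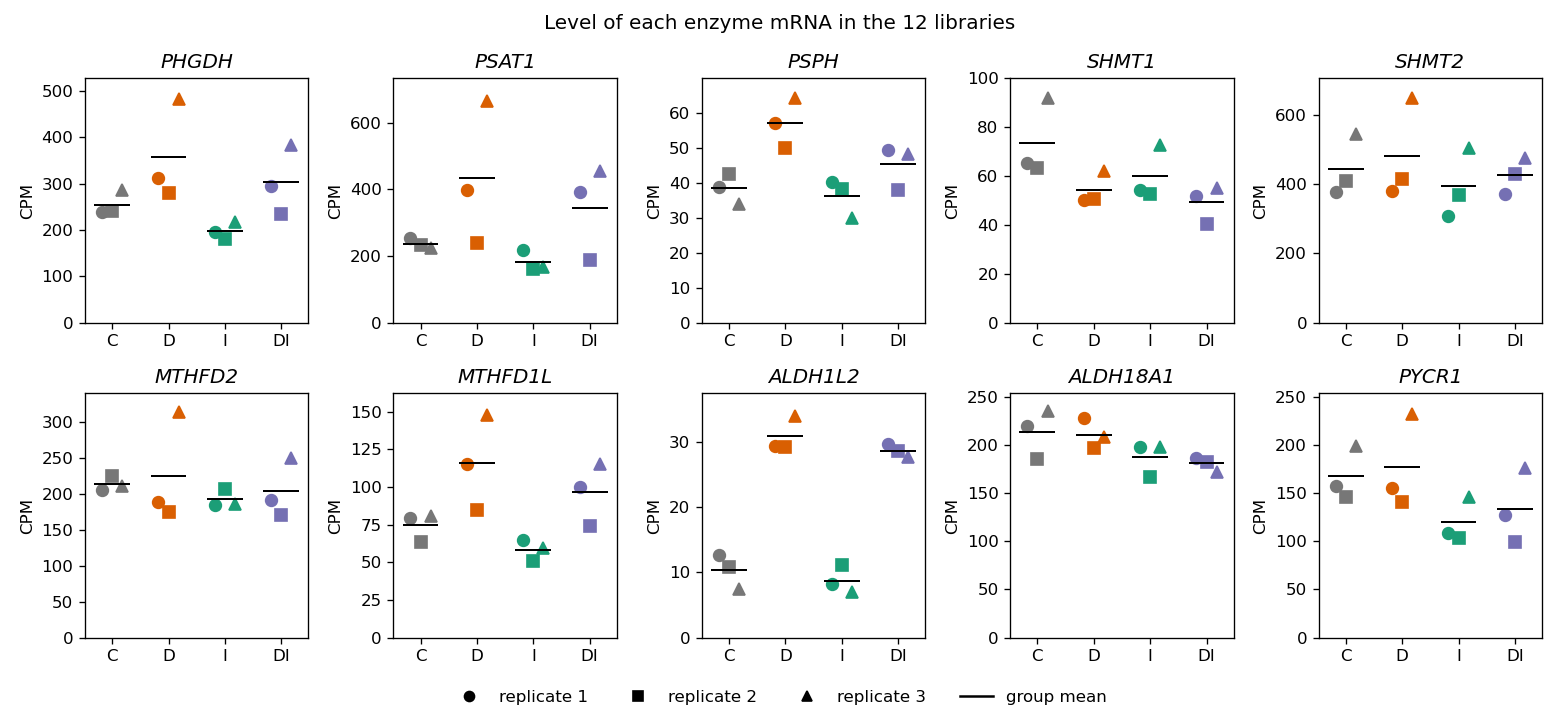
Level of each of the 10 enzyme mRNAs in CPM (y axis, linear and starting at 0) in C (untreated), D (with doxycycline), I (with IFNγ) and DI (with both agents). Each symbol is 1 library, its shape gives the replicate number and the bar is the group mean. ALDH1L2 lies between 7.02 and 12.7 CPM without doxycycline and between 27.7 and 34.0 CPM with it, and replicate 3 is the highest D library for 9 of the 10 enzymes.

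Of the 10 members, ALDH1L2 differed most with doxycycline. It encodes the mitochondrial 10-formyltetrahydrofolate dehydrogenase, which releases the one-carbon unit as carbon dioxide and makes NADPH (ENSG00000136010, chr12:105019784-105084577, minus strand, GRCh38). Its level was 12.7, 10.8 and 7.41 CPM in C and 29.4, 29.3 and 34.0 CPM in D. It was 8.16, 11.1 and 7.02 CPM in I and 29.7, 28.7 and 27.7 CPM in DI. Every library with doxycycline was above every library without it. The mean was 10.3 ± 2.68 CPM (SD, n = 3) in C and 30.9 ± 2.67 in D, against 8.75 ± 2.09 in I and 28.7 ± 1.03 in DI. The log2 fold change was 1.58 (SE 0.21), or 3.0-fold, in D vs C and 1.72 (SE 0.21), or 3.28-fold, for DI vs I. Leaving out any 1 of the 12 libraries kept it between 1.39 and 1.75 in D vs C and between 1.60 and 1.92 for DI vs I. These ranges describe the values on which ALDH1L2 was chosen and do not test the increase.

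All 3 enzymes of serine synthesis had higher means in D than in C and in DI than in I, and the size of the difference depended on the replicate. PHGDH, the first enzyme of the route (ENSG00000092621, chr1:119648411-119744226, plus strand), was at 238, 241 and 285 CPM in C and at 313, 279 and 482 CPM in D. It was at 195, 180 and 218 CPM in I and at 294, 234 and 383 CPM in DI. The groups overlapped in D vs C by 1 library and did not overlap for DI vs I. The log2 fold change was 0.49 (SE 0.22, adjusted p = 0.338 by edgeR) in D vs C and 0.62 (SE 0.22, adjusted p = 0.271) for DI vs I. Without D replicate 3 the value in D vs C was 0.218.

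PSAT1, the aminotransferase of the second step (ENSG00000135069, chr9:78297143-78330093, plus strand), was at 253, 234 and 224 CPM in C and at 399, 239 and 667 CPM in D. It was at 218, 162 and 168 CPM in I and at 392, 189 and 454 CPM in DI. Replicate 2 of each doxycycline group lay within the range of the group without doxycycline, while replicates 1 and 3 lay above it. The log2 fold change was 0.87 (SE 0.36, adjusted p = 0.302 by edgeR) in D vs C, or 1.83-fold, and 0.92 (SE 0.36, adjusted p = 0.336) for DI vs I, or 1.89-fold. The mean in D was 435 ± 216 CPM (SD, n = 3), against 237 ± 15.1 CPM in C. Without D replicate 3 the log2 fold change in D vs C was 0.43, and without D replicate 2 it was 1.17.

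PSPH, the phosphatase that completes serine (ENSG00000146733, chr7:56011051-56051604, minus strand), was at 38.8, 42.6 and 33.8 CPM in C and at 57.0, 50 and 64.2 CPM in D. It was at 40.2, 38.1 and 29.9 CPM in I and at 49.4, 38.0 and 48.3 CPM in DI. D lay wholly above C, and DI overlapped I at replicate 2. The log2 fold change was 0.57 (SE 0.16, adjusted p = 0.122 by edgeR) in D vs C and 0.33 (SE 0.16, adjusted p = 0.446) for DI vs I. PSPH shares sequence with the pseudogene PSPHP1, which held 9.55% as many counts as PSPH over the 12 libraries, so reads of the pair could be split between them.

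Of the serine hydroxymethyltransferases, SHMT1 had a lower mean with doxycycline and SHMT2 a slightly higher one. SHMT1, the cytosolic enzyme (ENSG00000176974, chr17:18327860-18363563, minus strand), was at 65.5, 63.2 and 91.8 CPM in C and at 50, 50.8 and 62.2 CPM in D. It was at 54.1, 52.8 and 72.6 CPM in I and at 52.0, 40.5 and 55.3 CPM in DI. D lay wholly below C, with D replicate 3 just under C replicate 2, and DI overlapped I. The log2 fold change was −0.44 (SE 0.19, adjusted p = 0.324 by edgeR) in D vs C and −0.28 (SE 0.19, adjusted p = 0.625) for DI vs I. It was −0.246 in D vs C without C replicate 3, and for DI vs I −0.104 without I replicate 3 and −0.16 without DI replicate 2. SHMT2, the mitochondrial enzyme (ENSG00000182199, chr12:57229327-57234935, plus strand), was at 376, 409 and 545 CPM in C and at 380, 415 and 648 CPM in D. Its groups overlapped, and its log2 fold change was 0.12 (SE 0.24, adjusted p = 0.892 by edgeR) in D vs C and 0.11 (SE 0.24, adjusted p = 0.921) for DI vs I.

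Of the other mitochondrial folate enzymes, MTHFD1L had a higher mean with doxycycline and MTHFD2 was close to its control. MTHFD1L makes formate, the form in which one-carbon units leave mitochondria (ENSG00000120254, chr6:150865549-151101887, plus strand). It was at 79.5, 63.4 and 80.9 CPM in C and at 115, 84.4 and 148 CPM in D. It was at 64.7, 50.8 and 59.4 CPM in I and at 100, 74.2 and 115 CPM in DI. No doxycycline library overlapped its reference group in either comparison. The log2 fold change was 0.64 (SE 0.21, adjusted p = 0.202 by edgeR) in D vs C and 0.73 (SE 0.21, adjusted p = 0.187) for DI vs I. Without D replicate 3 the value in D vs C was 0.42. Among the 6 members that have a promoter in the RefSeq table (250 bases before to 50 after the start, GRCh38.p14), MTHFD1L was the only member whose promoter held the letters TGATGNAA, the composite C/EBP-ATF element at which ATF4 is known to bind. The search covered both strands of PHGDH, PSAT1, SHMT1, MTHFD2, MTHFD1L and ALDH18A1, and 3.62% of 35116 promoters hold these letters. The hexamer CACGTG, the E-box bound by MYC family factors, occurs in 7.26% of promoters and in those of MTHFD1L and ALDH18A1, where it does not overlap the first motif. A window is shown for each motif, the first from MTHFD1L and the second from ALDH18A1. Capitals mark the motif, which in MTHFD1L starts 129 or 90 bases before or 24 bases after the start site, depending on which of its 3 start sites is taken, and in ALDH18A1 starts 136 bases before it. The motif letters were picked after the values of the members were seen, and a match says only that these letters are present.
MTHFD1L, chr6:150866346-150866375, plus strand: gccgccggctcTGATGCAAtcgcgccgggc
ALDH18A1, chr10:95656830-95656859, minus strand: gggctggcccgcCACGTGgagcgctggctt

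MTHFD2, the mitochondrial methylenetetrahydrofolate dehydrogenase (ENSG00000065911, chr2:74198562-74217565, plus strand), was at 205, 225 and 210 CPM in C and at 189, 174 and 313 CPM in D. D replicates 1 and 2 were below every C library and D replicate 3 was above them. The log2 fold change was 0.08 (SE 0.21, adjusted p = 0.921 by edgeR) in D vs C and 0.08 (SE 0.21, adjusted p = 0.937) for DI vs I. Its sign in D vs C rested on 1 library, since the log2 fold change was −0.24 without D replicate 3.

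Neither enzyme of proline synthesis differed with doxycycline beyond its spread. ALDH18A1, the synthase of the first steps from glutamate (ENSG00000059573, chr10:95605929-95656706, minus strand), was at 220, 186 and 236 CPM in C and at 228, 197 and 209 CPM in D. Its log2 fold change was −0.02 (SE 0.11, adjusted p = 0.969 by edgeR) in D vs C and −0.05 (SE 0.11, adjusted p = 0.92) for DI vs I, and it was above 0 in both when library size alone set the scale. PYCR1, the reductase of the last step (ENSG00000183010, chr17:81932384-81942412, minus strand), was at 158, 146 and 199 CPM in C and at 156, 141 and 233 CPM in D. Its log2 fold change was 0.08 (SE 0.24, adjusted p = 0.936 by edgeR) in D vs C and 0.17 (SE 0.24, adjusted p = 0.875) for DI vs I.

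In the model without the replicate number, 0 of the 9 members tested with doxycycline were called in D vs C. There 1.23% of all genes tested were called. For DI vs I 0 of the 9 were called, where 0.67% of all genes were called. At an unadjusted p under 0.05, 5 of the 9 passed in D vs C (PHGDH, PSAT1, PSPH, MTHFD1L and SHMT1), where 14.2% of all genes passed, and 3 for DI vs I (PHGDH, PSAT1 and MTHFD1L), where 12.2% passed. Of the 9, groups did not overlap for MTHFD1L and PSPH in the higher direction in D vs C, as for 10.1% of all genes. SHMT1 did not overlap in the lower direction, as for 9.1%. In DI vs I groups did not overlap for MTHFD1L and PHGDH, both higher, as for 8.17% of all genes. ALDH1L2 did not overlap in either comparison, but it was chosen on these values and is not set beside the shares. D vs C and DI vs I share no library. The median log2 fold change of the 9 was 0.12 in D vs C and 0.17 for DI vs I, beside medians of 0 and −0.01 over all genes tested.

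Libraries with the same replicate number varied together, and when the number was added to the model as a block, the standard errors of most members fell and more were called. In D vs C with this block, MTHFD1L (log2 fold change 0.61, SE 0.10, adjusted p = 0.00474 by edgeR), PHGDH (0.46, SE 0.11, adjusted p = 0.0211) and PSPH (0.57, SE 0.15, adjusted p = 0.0288) rose, and SHMT1 fell (−0.42, SE 0.09, adjusted p = 0.0133). In the same fit 13.9% of all genes were called. PSAT1 was not called (0.76, SE 0.27, adjusted p = 0.0832 by edgeR with the block). In DI vs I with the block, MTHFD1L (0.71, SE 0.10, adjusted p = 0.00297 by edgeR) and PHGDH (0.59, SE 0.11, adjusted p = 0.00896) rose, where 3.85% of all genes were called higher. PSAT1 (0.83, adjusted p = 0.0723), SHMT1 (−0.28, adjusted p = 0.077) and PSPH (0.33, adjusted p = 0.181) were not called there by edgeR. The DESeq2 Wald test without the block called PSPH in D vs C (0.57, adjusted p = 0.0183), where it called 2.98% of genes higher, and MTHFD1L for DI vs I (0.73, adjusted p = 0.0393), where it called 1.61% higher.

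**Figure D2:**
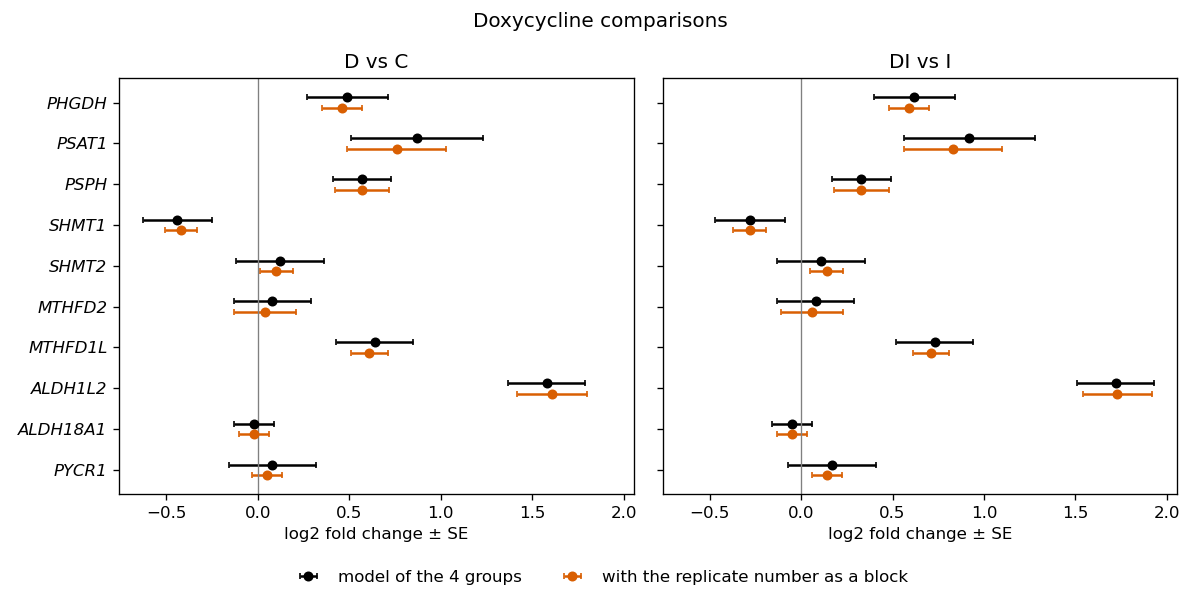
Log2 fold change ± SE (x axis) of the 10 enzymes in D vs C (left) and DI vs I (right), in the model of the 4 groups (black) and with the replicate number as a block (orange), each over 12 libraries. The points of the 2 models lie close together and the bars of PHGDH, SHMT1, SHMT2, MTHFD1L and PYCR1 are shorter with the block; ALDH1L2, on whose doxycycline values the group was selected, lies farthest to the right at 1.58 and 1.72.

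The difference with doxycycline within a replicate number was largest at number 3 and smallest at number 2 for several members. These ratios are of CPM + 0.5 in libraries of the same number. For PSAT1 the D to C ratio was 1.57, 1.02 and 2.98 at numbers 1, 2 and 3, and the DI to I ratio was 1.8, 1.16 and 2.69. For PHGDH the ratios were 1.32, 1.16 and 1.69 in D to C, and 1.5, 1.3 and 1.75 in DI to I. PSPH gave 1.47, 1.17 and 1.89 in D to C, and 1.23, 0.998 and 1.6 in DI to I. These 3 serine enzymes thus shared the order of the numbers in both comparisons. The comparisons have no library in common, but libraries of the same number varied together across groups. The repeat of the order is therefore not independent. MTHFD1L had the same order with a narrower range, at 1.45, 1.33 and 1.82 in D to C and 1.55, 1.46 and 1.92 in DI to I. MTHFD2 was below its reference at number 2 and above it at number 3, with 0.921, 0.774 and 1.49 in D to C and 1.04, 0.822 and 1.34 in DI to I. ALDH1L2 gave 2.27, 2.64 and 4.36 in D to C and 3.49, 2.53 and 3.75 in DI to I, and SHMT1 was below 1 in all 6 ratios, from 0.68 to 0.96. Of all genes tested, 22.3% were below their reference at numbers 1, 2 and 3 in D to C, and 24.5% in DI to I. Replicate 3 was the highest D library for 9 of the 10 members, as for 34.4% of all genes tested, and the highest DI library for 7, as for 34%. Replicate 2 was the lowest D library for 8, as for 36.7% of all genes, and the lowest DI library for 7, as for 39.7%. The members share their libraries, so these counts describe the libraries and were not tested.

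**Figure D3:**
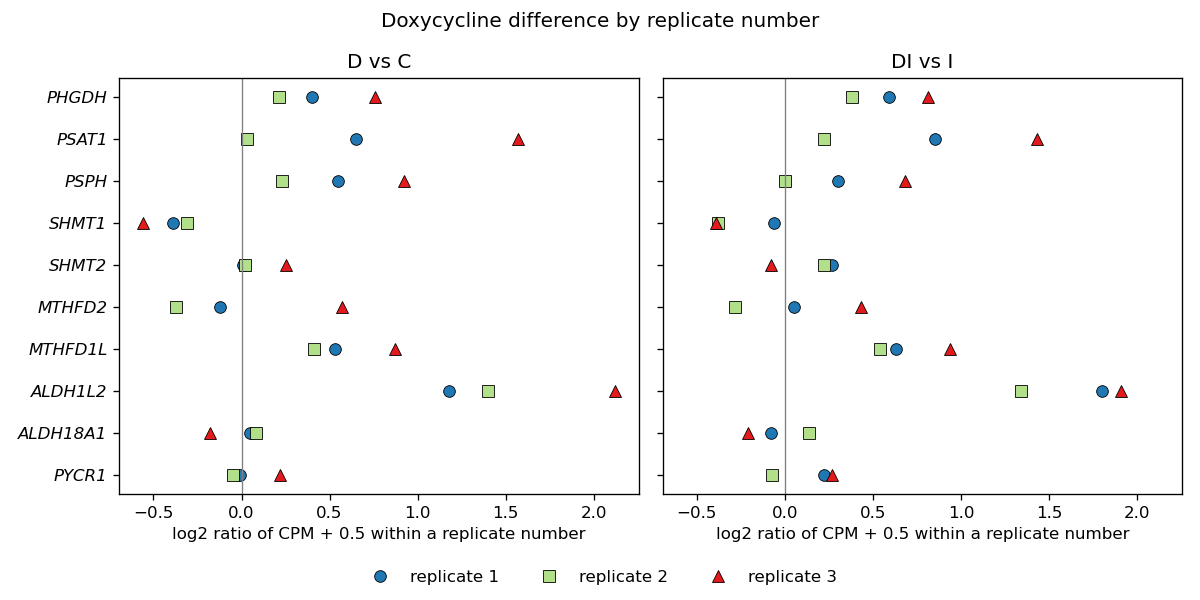
Log2 ratio of CPM + 0.5 (x axis) between libraries of the same replicate number, D to C (left) and DI to I (right), for the 10 enzymes, with 1 symbol for each number. For PHGDH, PSAT1, PSPH and MTHFD1L number 3 lies farthest right and number 2 farthest left in both comparisons, and PSAT1 spans ratios of 1.02 to 2.98 in D to C.

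With IFNγ the enzymes were slightly lower in mean. None was called without the replicate block, and PYCR1 alone was called with it. All 10 members had a log2 fold change below 0 in I vs C, beside 51.6% of all genes tested, with a median of −0.27 beside −0.01 over all genes. All 10 were also below 0 in DI vs D, beside 52.9% of all genes, with a median of −0.23 beside −0.01. Without the block no member was called by edgeR in either comparison, where 2.21% and 1.72% of all genes were called. In that model 0 members had an unadjusted p under 0.05 in either, beside 8.0% and 6.24% of all genes. DESeq2 also called 0 members in both. With the replicate number as a block, 5 members had an unadjusted p under 0.05 in I vs C, beside 18.1% of all genes, and 4 in DI vs D, beside 14.4%. With only the 6 libraries compared, 4 had it in I vs C, beside 9.19% of all genes. Some of these signs rested on 1 library: without C replicate 3 that of SHMT2 in I vs C was 0.001, without I replicate 3 that of PSPH was 0.015, and without D replicate 3 those of PHGDH, PSAT1, SHMT2 and MTHFD2 in DI vs D were above 0 at 0.036, 0.112, 0.098 and 0.164.

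PYCR1 differed most with IFNγ. It was at 158, 146 and 199 CPM in C and at 109, 104 and 146 CPM in I. It was at 156, 141 and 233 CPM in D and at 127, 99.4 and 176 CPM in DI. I lay wholly below C, with I replicate 3 just under C replicate 2, and DI overlapped D. The log2 fold change was −0.49 (SE 0.24, adjusted p = 0.722 by edgeR) in I vs C, or 0.713-fold, and −0.40 (SE 0.24, adjusted p = 1) in DI vs D, or 0.759-fold. Within replicate numbers 1, 2 and 3 the ratio was 0.692, 0.714 and 0.731 in I to C and 0.815, 0.706 and 0.755 in DI to D. With the replicate number as a block PYCR1 fell in both, by edgeR: in I vs C by 0.49 on the log2 scale (SE 0.083, adjusted p = 0.0042), where 1.14% of all genes were called lower, and in DI vs D by 0.40 (SE 0.082, adjusted p = 0.0182), where 0.695% were called lower. It was the only member called with the block in either comparison. The 2 comparisons share no library, but libraries of the same number varied together, so these comparisons are not independent.

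Among the serine enzymes, the log2 fold change in I vs C was −0.36 for PHGDH (SE 0.22, adjusted p = 0.869 by edgeR), −0.38 for PSAT1 (SE 0.36, adjusted p = 1) and −0.09 for PSPH (SE 0.16, adjusted p = 1). I lay wholly below C for PHGDH, PSAT1 and PYCR1, as for 6.24% of all genes. In DI vs D the serine enzymes were at −0.24, −0.33 and −0.33 in the same order, and DI lay wholly below D for PSPH and ALDH18A1, as for 3.77% of all genes. MTHFD1L was at −0.35 (SE 0.21, adjusted p = 0.873 by edgeR) in I vs C and −0.26 in DI vs D, and with the block its adjusted p in I vs C was 0.0852. ALDH1L2 was at −0.24 (SE 0.21, adjusted p = 1 by edgeR) in I vs C and −0.10 (SE 0.20, adjusted p = 1) in DI vs D. Its groups with and without IFNγ overlapped in both comparisons.

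**Figure D4:**
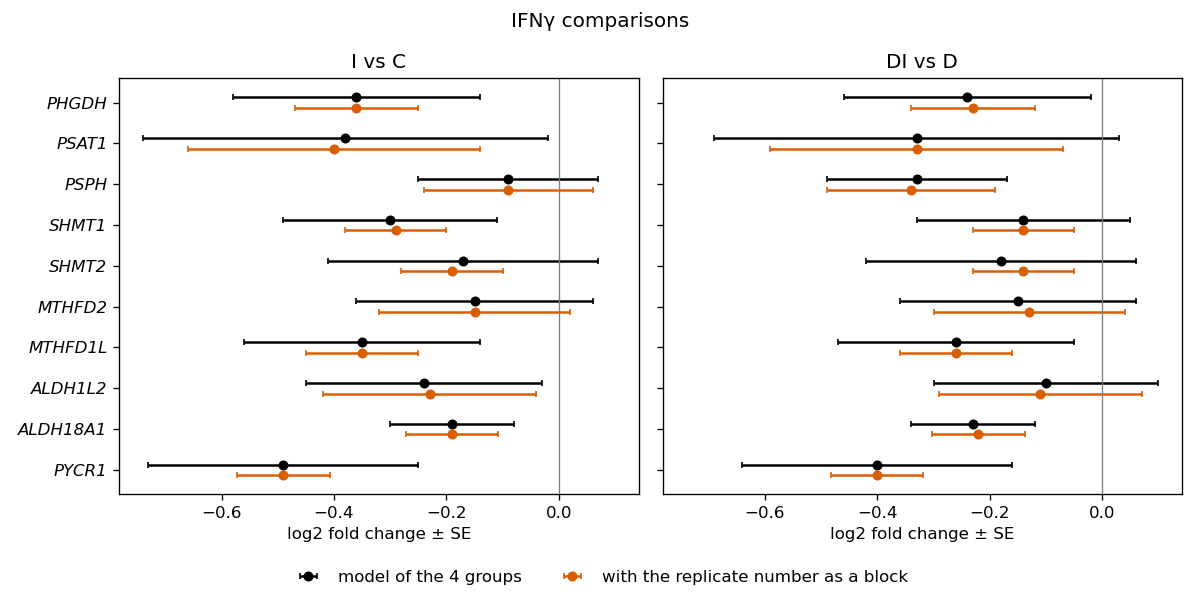
Log2 fold change ± SE (x axis) of the 10 enzymes in I vs C (left) and DI vs D (right), in the model of the 4 groups (black) and with the replicate number as a block (orange), each over 12 libraries. All points lie below 0, and PYCR1 is the lowest in both panels at −0.49 and −0.40.

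Whether the doxycycline difference itself differed with IFNγ was tested as an interaction (DI vs I set against D vs C). Of the 10 members 0 were called, as were 0 of all genes (0.0%) by edgeR, with 99 genes (0.625%) and 0 members at an unadjusted p under 0.05, and DESeq2 called 2 genes and 0 members. The interaction ran from −0.24 (SE 0.22) for PSPH to 0.15 (SE 0.26) for SHMT1 on the log2 scale, and was 0.13 (SE 0.29) for ALDH1L2, all with an adjusted p of 1 by edgeR. The standard errors of the 10 interactions were 0.16 to 0.51 on the log2 scale.

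Levels were compared between the enzymes per kilobase of the principal GENCODE transcript, since longer transcripts collect more counts. By this length, SHMT2 was the highest in C at 175 ± 35.3 CPM per kilobase (SD, n = 3), followed by PSAT1 at 108 ± 6.89, PHGDH at 98.4 ± 10.2, PYCR1 at 88.1 ± 14.7, ALDH18A1 at 63.8 ± 7.63 and MTHFD2 at 47.9 ± 2.35. SHMT1 was at 29.8 ± 6.43, MTHFD1L at 20.7 ± 2.69 and PSPH at 17.6 ± 2.02 CPM per kilobase. ALDH1L2 was the lowest, at 1.36 ± 0.355 CPM per kilobase in C and 4.09 ± 0.353 in D, against 1.16 ± 0.276 in I and 3.81 ± 0.137 in DI, and so stayed below all the other enzymes in every group. Neighbours whose C libraries overlapped were PSAT1 and PHGDH, PHGDH and PYCR1, and MTHFD1L and PSPH. This order depends on the length taken. Per kilobase of all annotated exons, PSAT1 was the highest in C at 108 ± 6.89 and SHMT2 was at 91.6 ± 18.5, PHGDH was at 27.6 ± 2.86, and SHMT1, at 10.1 ± 2.18, was below MTHFD1L (14.9 ± 1.93) and PSPH (13.9 ± 1.59). ALDH1L2 was again the lowest, at 1.21 ± 0.315.

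**Figure D5:**
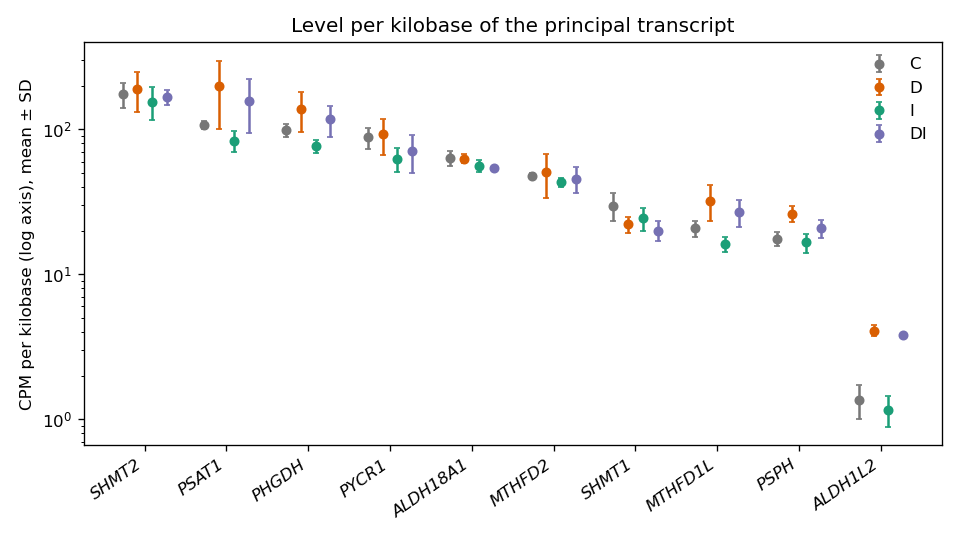
Level per kilobase of the principal transcript (y axis, CPM per kilobase on a log axis) as mean ± SD of 3 libraries for the 10 enzymes, ordered by their level in C, in the 4 groups. ALDH1L2 is the lowest in all groups, between 1.16 and 4.09 CPM per kilobase, and SHMT2 is the highest in C at 175 by this length.

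The other genes of serine, glycine, folate, proline and glutamate metabolism were read from a list of 49, of which 41 passed the filter on low counts. By edgeR without the block 0 of the 41 were called in any of the 5 contrasts. At an unadjusted p under 0.05 there were 5 in D vs C and 5 for DI vs I. There were 2 each in I vs C, DI vs D and the interaction. The 5 of 41 in each doxycycline comparison are at or below the share of all genes, which was 14.2% and 12.2% as given above. The share of all genes was 8.0% in I vs C, 6.24% in DI vs D and 0.625% for the interaction. Their median log2 fold change was 0.02 in D vs C and −0.01 for DI vs I, beside 0 and −0.01 over all genes. In I vs C it was −0.13, with 70.7% of the 41 below 0, and in DI vs D −0.08, with 78% below 0. With the replicate number as a block, edgeR called 4 of the 41 in D vs C, where 13.9% of all genes were called. OAT and GLUD1, mitochondrial enzymes that make and use glutamate, fell (−0.48, SE 0.08, adjusted p = 0.00442, and −0.35, SE 0.08, adjusted p = 0.0214), and CBS and SDSL rose. For DI vs I the block called 4, where 10.5% of all genes were called. OAT (−0.47, SE 0.08, adjusted p = 0.00633 by edgeR) and GLUD1 (−0.36, SE 0.08, adjusted p = 0.0251) again fell, as did SARDH, and SLC25A32 rose at 1 to 20 counts per library. In I vs C the block called SDSL higher and GCAT lower, where 6.02% of all genes were called, and in DI vs D it called CBS lower, where 4.46% were called. DESeq2 called CBS higher in D vs C and lower in DI vs D, where it called 0.228% of genes lower, and no other gene of the list. These genes were named after their values were seen.

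The paralogs given here were not called with doxycycline. MTHFD1, the cytosolic trifunctional enzyme, had a log2 fold change of 0.10 (adjusted p = 0.766 by edgeR) in D vs C and 0.18 (adjusted p = 0.558) for DI vs I. MTHFD2L was at 0.03 in both and PYCR3 at 0.06 and 0.03, neither of them called. ALDH1L1, the cytosolic counterpart of ALDH1L2, reached at most 0.308 CPM and was not tested.

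The genes whose level was most like that of ALDH1L2 were picked by the Pearson correlation of log2(CPM + 0.5) over the 12 libraries, among tested genes with a mean of at least 1 CPM. The first 8 were PTGFRN (0.968), BTRC (0.966), SF1 (0.965), CCAR1 (0.961), TYK2 (0.959), PCNT (0.959), SLAIN2 (0.957) and KLHDC4 (0.955). Of the other members, PSPH was the nearest at 0.814, which ranked 412, then MTHFD1L at 0.753, PSAT1 at 0.686 and PHGDH at 0.667. MTHFD2 was at 0.184, SHMT2 at 0.143, PYCR1 at 0.132, ALDH18A1 at −0.14 and SHMT1 at −0.645. These points share their libraries and the doxycycline contrast, so the correlations are a description only.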

How the data were processed

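Libraries of SK-N-DZ RNA (Illumina paired-end, 150 bases per the labels) were analysed from the raw counts per gene that the authors deposited. The aligner, counting tool and genome build are not given in the sources used here, and all 43769 gene identifiers occur in GENCODE 29 (GRCh38), from which positions and lengths were taken. The submitters' processing notes name DESeq2. The authors' 3 tables of group comparisons hold log2 fold changes and p-values and were not used, nor were 18 per-library columns whose names the labels do not explain.

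Counts were scaled by TMM, filtered with filterByExpr (minimum count 10) and tested two-sided with the quasi-likelihood test of edgeR 4.0.16 in a single model of all groups (R 4.3.3 with limma 3.58.1, and Python 3.11.15 for summaries). BH adjusted p-values over 15828 genes were called under 0.05. The main model left out the replicate number, which pairs the libraries, so the lack of a call in it does not show the lack of a difference. CPM divides counts by the TMM-scaled library size, and 3 counts equal 0.135 to 0.187 CPM, which covers counting error only. The code was tested on simulated data. Alternatives were DESeq2 1.42.0, other scalings, no filter, the replicate block, only the 6 libraries compared, and each library left out.

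The replicate numbers pair the libraries: after removal of group means, libraries with the same number had correlations of 0.321 to 0.839 over 18 pairs, while libraries of unlike number had −0.663 to 0.183 over 36 pairs. The chi-square per gene between replicates was 18.6 to 82.2, so no library was a repeat of another.

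The members, the marker and pathway lists and the tests were chosen with earlier results of these data known. Genes named were the members, their paralogs (1 is not reported here), ARID1A, ATF4, pathway genes with an adjusted p under 0.05 in the model without the block (of which there were 0) and the 8 genes most like ALDH1L2. Pathway genes called only with the block or by DESeq2 fall outside this rule and were named after their values were seen.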

Additional observations from a re-analysis of the deposited data

How the results depend on the processing

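ALDH1L2, which was not tested with doxycycline, is left out of the member counts for D vs C and DI vs I here. No other member was called under any other scaling, without the filter, with only the 6 libraries compared, or without any 1 library. Of the 9 others, DESeq2 called 1 in D vs C and 1 for DI vs I, and the replicate block called 4 in D vs C, 2 for DI vs I, and of all 10 members the block called 1 in I vs C and 1 in DI vs D. Calls over all genes in D vs C (194) were 119 without the filter, 814 by DESeq2, 2200 with the replicate block and 16 with only the 6 libraries, and for DI vs I (106) they were 617, 1658 and 0 under the last 3. In I vs C (350) they were 558 by DESeq2 and 953 with the block, in DI vs D (273) 442 and 706, and for the interaction (0) DESeq2 gave 2. Leaving out 1 library gave 42 (without C replicate 3) to 195 in D vs C, 35 (without I replicate 2) to 96 for DI vs I, 262 to 364 in I vs C and 210 to 279 in DI vs D. With library size alone, 199 genes were called higher and 89 lower in D vs C, against 78 and 116, and 53 and 65 for DI vs I, against 16 and 90. Library size alone turned ALDH18A1 to 0.069 in D vs C and 0.037 for DI vs I, and the SHMT2 interaction was 0.002 under it, 0.008 without the filter and 0.043 with the replicate block.

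Signs of small log2 fold changes turned when 1 library was left out. In D vs C the ranges were −0.121 to 0.055 for ALDH18A1, −0.236 to 0.232 for MTHFD2, −0.176 to 0.216 for PYCR1 and −0.16 to 0.291 for SHMT2. In DI vs I they were −0.133 to 0.002 for ALDH18A1, −0.092 to 0.193 for MTHFD2, −0.081 to 0.346 for PYCR1 and −0.032 to 0.349 for SHMT2. In DI vs D they were −0.322 to 0.164 for MTHFD2, −0.44 to 0.036 for PHGDH, −0.628 to 0.112 for PSAT1 and −0.322 to 0.098 for SHMT2, and in I vs C −0.179 to 0.015 for PSPH and −0.408 to 0.001 for SHMT2. The interaction ranged from −0.112 to 0.077 for ALDH18A1, −0.023 to 0.336 for ALDH1L2, −0.093 to 0.305 for MTHFD1L, −0.168 to 0.317 for MTHFD2, −0.079 to 0.397 for PHGDH, −0.25 to 0.489 for PSAT1, −0.155 to 0.341 for PYCR1, −0.036 to 0.342 for SHMT1 and −0.179 to 0.273 for SHMT2. The cause of these changes was not tested.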

Other observations

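The balance of the mitochondrial and cytosolic serine hydroxymethyltransferases was read after the values of the members were seen and was not tested. The ratio of SHMT2 to SHMT1 counts was 5.74, 6.47 and 5.94 in C and 7.6, 8.16 and 10.4 in D. It was 5.66, 6.96 and 6.94 in I against 7.13, 10.6 and 8.6 in DI. Every library with doxycycline was above every library without it. The ratio of MTHFD1L to MTHFD1 counts, the mitochondrial and cytosolic formate enzymes, was 0.399, 0.314 and 0.397 in C and 0.468, 0.429 and 0.724 in D. It was 0.347, 0.3 and 0.344 in I and 0.456, 0.414 and 0.572 in DI, and every doxycycline library was again above every library without it. The nearest values with and without doxycycline were 7.13 and 6.96 for SHMT2 to SHMT1, and 0.414 and 0.399 for MTHFD1L to MTHFD1. Both ratios hold a member, SHMT1 or MTHFD1L, whose D and C groups already did not overlap. How often other pairs of genes separate in this way was not counted. The ratios compare counts of transcripts of unequal length, so their size does not give the balance of molecules.

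Of the 41 other pathway genes tested, CBS, which condenses serine with homocysteine in the transsulfuration route, had the smallest adjusted p with doxycycline alone and was picked after its values were seen. It was at 16.2, 16.5 and 14.9 CPM in C, 25.3, 32.6 and 71.1 CPM in D. It was at 12.9, 16.7 and 12 CPM in I, against 18.6, 14.4 and 14.5 CPM in DI. D lay above the other 3 groups, with D replicate 3 the highest. The log2 fold change was 1.44 (SE 0.32, adjusted p = 0.0639 by edgeR) in D vs C, 0.19 (SE 0.32, adjusted p = 0.895) for DI vs I and −1.44 (SE 0.32, adjusted p = 0.0572) in DI vs D. With the replicate block the adjusted p was 0.0179 for D vs C and 0.0324 for DI vs D, and by DESeq2 0.00107 and 0.00111. The interaction, −1.25 (SE 0.45), had an adjusted p of 1 by edgeR. GRCh38 holds a near-identical copy of CBS, named CBSL, but no gene of that name was among those counted. How reads shared with this copy were handled is not known.

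PSPHP1, the pseudogene of PSPH, overlapped between the groups with and without doxycycline. It had 74, 88 and 80 counts in C and 65, 77 and 71 in D. It had 113, 96 and 65 counts in I against 94, 73 and 75 in DI.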
